A study of Zea mays with 18 samples.

Results

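The genes described here are 100 maize genes whose RNA in the young endosperm was high 1 day after pollination (DAP), low at 2 and 3 DAP, and high again at 4 DAP. They were chosen by their deposited expression values at 1, 2, 3 and 4 DAP, in CPM, read counts scaled to a common library size. A gene had to have at least 3 CPM in all 3 libraries of 1 DAP and all 3 of 4 DAP, which 13467 of 38300 genes did. Each was scored by the lower of its 1 and 4 DAP means divided by the higher of its 2 and 3 DAP means, with 1 CPM added to both, and the 100 highest scores were taken. The dip itself is therefore what selected the genes, and its values are given below as a description, with no test.

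The series profiled the maize inbred B73 by RNA sequencing of tissue taken by laser-capture microdissection from greenhouse-grown ears. It has 18 libraries in 6 groups of 3: the whole embryo at 4 DAP, the central cell of unfertilized ears (0 DAP), and the endosperm of self-pollinated ears at 1, 2, 3 and 4 DAP. All groups are of the same inbred, and the labels give no mutation, transgene or treatment. A library holds sections captured from several kernels of 1 ear.

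The central cell is the cell of the embryo sac that, once fertilized, founds the endosperm, the tissue that feeds the embryo and later the seedling. In cereals its nuclei first multiply without cell walls, the resulting coenocyte then becomes cellular, and the cells go on to form the transfer layer, the aleurone, the region around the embryo and the starchy interior. Starch is built in plastids from ADP-glucose, which ADP-glucose pyrophosphorylase makes and which starch synthases and branching enzymes assemble. A whole-tissue library cannot tell fewer cells of a type from less RNA per cell.

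Depth ran from 7688120 reads in replicate 1 of 1 DAP to 124078873 in replicate 1 of 2 DAP, the embryo's replicate 1 had 9572961, and every other library had at least 42634068. The 3 CPM minimum stood for 26.9 reads in the shallowest library. The RNA was amplified, so reads are not independent molecules, and statements on depth cover counting error only. Between replicates of a group, Pearson's r over genes was 0.925 to 0.988. The summed CPM of 8 embryo marker models was 51.8 to 113 in embryo libraries and 2.00 to 13.3 in the others, and that of 4 embryo-sac genes was 181 to 476 in the central cell and at most 28.0 in the endosperm. Basal transfer-layer markers (15 models) summed to 669.96 to 2499 CPM in the 4 DAP endosperm and to at most 2.13 elsewhere. Markers of the embryo-surrounding region of the endosperm (5 models) summed to 473 to 890.0 CPM in the embryo libraries and to 42.5 to 255 CPM in the 4 DAP endosperm, so this endosperm set was highest in the libraries labelled embryo. Per the labels, RNA of 0 to 2 DAP and of the embryo was quantified by the height of the 18S band. RNA of 3 and 4 DAP endosperm was quantified otherwise. The high stages, 1 and 4 DAP, and the low stages, 2 and 3 DAP, thus each hold both methods. The part of the method in the dip was not tested.

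Across the 100 genes the median level was 15.7 CPM at 1 DAP, 3.37 CPM at 2 DAP, 4.00 CPM at 3 DAP and 14.8 CPM at 4 DAP. The median over all 13467 genes meeting the minimum stayed between 18.6 and 20.1 CPM over the same stages. Library by library, the members' median was 13.3 to 17.6 CPM at 1 DAP, 3.09 to 3.42 at 2 DAP, 3.71 to 4.36 at 3 DAP and 12.6 to 15.3 at 4 DAP, so the members' medians at 2 and 3 DAP lay below those of every 1 and 4 DAP library. Scores ran from 1.85 to 6.86 with a median of 2.30, against a median of 0.691 over all genes meeting the minimum, of which 1894 (14.1%) scored above 1. The mean was under 3 CPM at 2 DAP in 42 members and at 3 DAP in 38, against 2.21% and 1.02% of all genes meeting the minimum. The score favours low means at these stages, so nothing is read from these counts. The 2 DAP mean was the lower of the pair in 59 members, against 46.7% of those genes. The 4 DAP mean exceeded the 1 DAP mean in 40, against 51.8%.

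**Figure D1:**
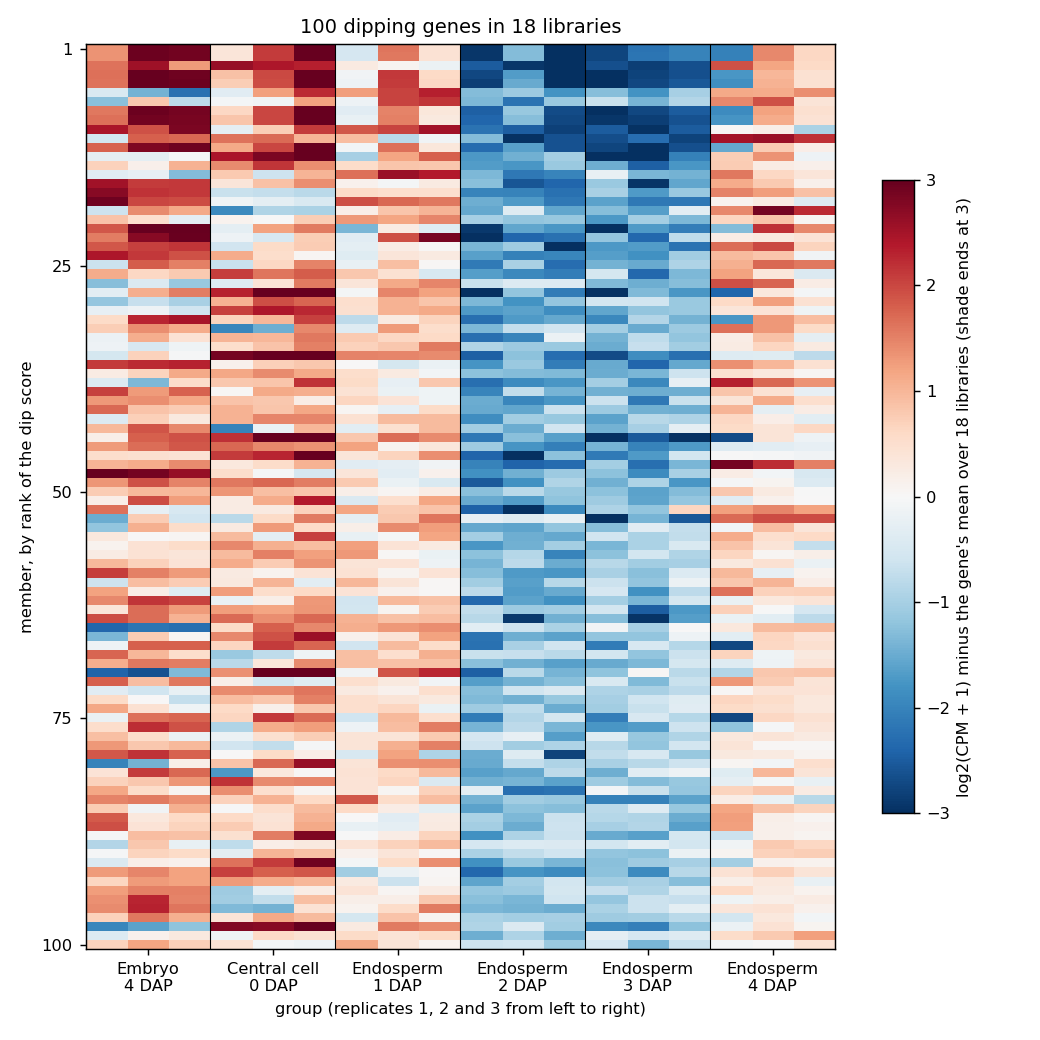
Expression of the 100 dipping genes in each of 18 libraries, as log2(CPM + 1) minus the gene's own mean; rows run by rank of the dip score and columns by group, with replicates 1, 2 and 3 from left to right. The 2 and 3 DAP columns are blue in nearly every row because the score selected them so. The embryo and central cell columns, which the score did not use, are mostly red. That red is set in part by the centring, since each gene's mean includes the stages selected to be low.

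The threshold fell in a continuous run of scores. The last 3 genes inside it were GRMZM2G152447, GRMZM2G095955 and GRMZM2G120175, with scores of 1.87, 1.86 and 1.85, and the first 3 outside it, GRMZM2G082500, GRMZM2G366389 and GRMZM2G305115, each scored 1.84. GRMZM2G120175, the last gene taken, averaged 21.9, 7.95, 7.61 and 15.6 CPM at 1, 2, 3 and 4 DAP. GRMZM2G082500, the first left out, averaged 9.04, 3.23, 4.45 and 11.1 CPM at the same stages.

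The members include 3 enzymes of starch synthesis, each with its highest group mean in the central cell, before fertilization. AGP2 (GRMZM2G027955), a subunit of ADP-glucose pyrophosphorylase, had the highest score among the members with a symbol, 6.80. Its libraries held 13.0, 11.2 and 9.25 CPM at 1 DAP, 1.04, 0.542 and 0.272 CPM at 2 DAP, 0.859, 0.632 and 0.882 CPM at 3 DAP, and 42.4, 25.5 and 16.6 CPM at 4 DAP. The 1 and 4 DAP libraries lay far above the 2 and 3 DAP libraries, none of which exceeded 1.04 CPM. In the embryo AGP2 had 35.1, 66.2 and 27.3 CPM, against 70.1, 61.8 and 57.9 CPM in the central cell, and these groups overlapped.

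The plastidial starch phosphorylase pho1 (GRMZM2G074158) showed a shallower version of this course, with scattered replicates. It had 14.5, 11.1 and 5.30 CPM at 1 DAP, 1.81, 1.31 and 1.10 CPM at 2 DAP, 5.19, 0.737 and 2.46 CPM at 3 DAP and 19.3, 10.3 and 5.56 CPM at 4 DAP. Replicate 3 of 1 DAP and replicate 1 of 3 DAP nearly touched. In embryo libraries pho1 had 18.2, 12.5 and 14.2 CPM, against 36.5, 25.7 and 30.2 CPM in central cell libraries, with no overlap. The starch branching enzyme IIb gene ae1 (GRMZM2G032628) had a shallower dip, with 43.6, 40.3 and 44.9 CPM at 1 DAP, 15.5, 21.7 and 17.1 CPM at 2 DAP, 15.7, 11.9 and 14.9 CPM at 3 DAP, and 67.9, 46.5 and 38.4 CPM at 4 DAP. Each of its 1 and 4 DAP libraries was above each of its 2 and 3 DAP libraries. The embryo's 66.4, 75.9 and 77.4 CPM for ae1 overlapped the central cell's 98.3, 73.05 and 69.2 CPM.

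Among 22 starch and sucrose-cleavage genes with a symbol, some dipped and some did not. Of the 22, 10 met the 3 CPM minimum and 5 of these scored above 1, against 14.1% of all genes meeting the minimum. The 5 were the 3 members, the debranching enzyme zpu1 at 1.28 and the starch synthase ss1 at 1.15. The score chose the members, which all lie above 1, so nothing is read from this count. The starch synthase du1 averaged 22.4, 20.1, 36.9 and 112 CPM at 1, 2, 3 and 4 DAP, with no low at 2 and 3 DAP. The branching enzyme model sbe1 (GRMZM2G088753) averaged 19.3, 28.4, 41.6 and 49.6 CPM. A different ADP-glucose pyrophosphorylase model, Agp2 (GRMZM2G106213), averaged 17.5, 5.54, 20.0 and 52.0 CPM, so that its lowest mean was at 2 DAP and its score was 0.883. Summed over the 22 genes, CPM ran from 304 to 372 at 1 DAP, 126 to 146 at 2 DAP, 143 to 207 at 3 DAP and 293 to 483 at 4 DAP. The sum, to which the members contribute, was thus lower in every 2 and 3 DAP library than in any 1 or 4 DAP library. It adds genes of unlike courses and does not show a dip shared by the list. The sucrose synthase genes sus1 and sh1 fell without a return, while du1 made up much of the 4 DAP sum. From 1 to 4 DAP sus1 averaged 108, 8.21, 0.883 and 0.870 CPM, and sh1 averaged 31.3, 7.62, 0.873 and 1.32 CPM.

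**Figure D2:**
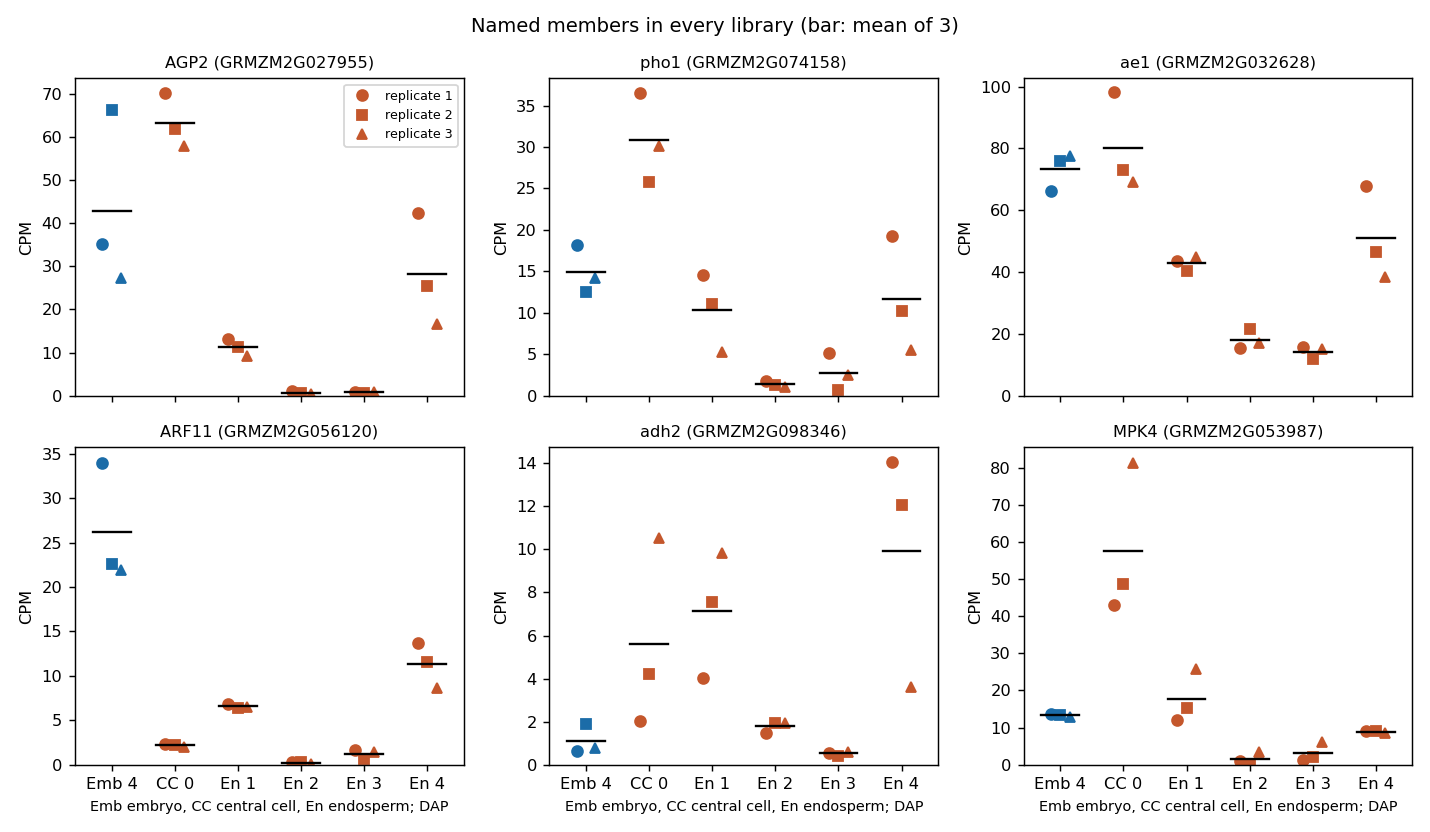
CPM in every library for 6 named members (embryo blue, central cell and endosperm orange; symbols mark replicates 1, 2 and 3 and bars the mean of 3). All 6 sit low at 2 and 3 DAP, the stages that chose them, but differ in the embryo and central cell: ARF11 is highest in the embryo, MPK4 in the central cell and adh2 at 4 DAP.

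Among regulators, ARF11 (GRMZM2G056120), an auxin response factor of the family of transcription factors that act on auxin-regulated promoters, had 6.80, 6.43 and 6.48 CPM at 1 DAP, 0.325, 0.300 and 0.113 CPM at 2 DAP, 1.67, 0.605 and 1.42 CPM at 3 DAP and 13.7, 11.6 and 8.65 CPM at 4 DAP, with no overlap between the high and the low stages. Of 18 auxin response factor genes, 11 met the minimum and ARF11 alone was a member. Of those 11, 6 scored above 1, against 14.1% of all genes meeting the minimum. ARF11 is among the 6 by the rule, so nothing is read from this count. After ARF11 the next highest, ARF13 and ARF18, scored 1.75 and 1.66. ARF13 averaged 216, 45.9, 73.4 and 129 CPM from 1 to 4 DAP, and ARF18 averaged 13.0, 4.43, 7.44 and 17.2 CPM. ARF1 ran the other way, with 4.42, 10.3, 13.4 and 5.04 CPM.

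NF-YA7 (GRMZM2G040349), a subunit of the NF-Y complex that binds CCAAT boxes, had 9.82, 8.26 and 6.19 CPM at 1 DAP, 1.41, 1.86 and 2.20 CPM at 2 DAP, 4.54, 2.05 and 3.81 CPM at 3 DAP and 17.6, 11.9 and 8.88 CPM at 4 DAP. Its high and low stages did not overlap. TIFY12 (GRMZM2G086920), of the plant TIFY family that includes jasmonate signalling repressors, had 6.36, 7.71 and 10.9 CPM at 1 DAP, 1.11, 2.94 and 3.77 CPM at 2 DAP, 1.60, 1.42 and 4.14 CPM at 3 DAP and 3.72, 7.22 and 6.84 CPM at 4 DAP. Replicate 1 of 4 DAP lay within the range of the low stages. Of 12 TIFY genes 5 met the minimum, and 3 scored above 1, against 14.1% of all genes meeting the minimum. TIFY12 is among the 3 by the rule, so nothing is read from this count.

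MPK4 (GRMZM2G053987), a mitogen-activated protein kinase, had 12.2, 15.2 and 25.9 CPM at 1 DAP, 0.927, 0.214 and 3.35 CPM at 2 DAP, 1.37, 2.13 and 6.03 CPM at 3 DAP and 9.15, 9.03 and 8.56 CPM at 4 DAP. Replicate 3 was the highest at 1, 2 and 3 DAP, and the high stages still lay above the low ones. The other 3 MAP kinase genes met the minimum, and each scored below 1, from 0.451 to 0.835. AUX6 (GRMZM2G035465) had 23.0, 22.5 and 22.6 CPM at 1 DAP, 4.38, 3.67 and 3.14 CPM at 2 DAP, 3.47, 4.03 and 7.90 CPM at 3 DAP and 8.76, 10.5 and 15.4 CPM at 4 DAP. Its 4 DAP level thus stayed below its 1 DAP level, and replicate 1 of 4 DAP was only just above replicate 3 of 3 DAP.

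Among enzymes and transporters, adh2 (GRMZM2G098346), an alcohol dehydrogenase used in fermentation, had 4.02, 7.57 and 9.82 CPM at 1 DAP, 1.46, 1.96 and 1.94 CPM at 2 DAP, 0.561, 0.421 and 0.610 CPM at 3 DAP and 14.1, 12.1 and 3.61 CPM at 4 DAP. Its level at 3 DAP was below that at 2 DAP in all 3 replicates. The gene por1 (GRMZM2G155021), for a porin of the outer mitochondrial membrane, had 6.36, 9.87 and 10.7 CPM at 1 DAP, at most 0.742 CPM at 2 DAP, at most 1.43 CPM at 3 DAP, and 5.82, 6.05 and 3.80 CPM at 4 DAP. The glutathione transferase gene gst37 (GRMZM2G178079) had 14.9 to 22.5 CPM at 1 DAP, 5.23 to 9.18 at 2 DAP, 7.55 to 8.93 at 3 DAP and 14.3 to 23.0 at 4 DAP. In all of these genes the high and the low stages did not overlap.

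For lpa1 (GRMZM5G820122), an ABC transporter gene named for the low phytic acid of its mutants, the ranges were 4.03 to 5.47 CPM at 1 DAP, 0.542 to 1.85 at 2 DAP, 0.395 to 2.46 at 3 DAP and 6.84 to 14.1 at 4 DAP. The adenine salvage enzyme gene aprt1 (GRMZM2G170101) had 10.1 to 12.6 CPM at 1 DAP, 1.71 to 3.16 at 2 DAP, 1.61 to 4.27 at 3 DAP and 5.51 to 9.22 at 4 DAP. COR413-TM1 (GRMZM2G102605), of a family of cold-regulated plastid membrane proteins, had 3.01 to 11.3 CPM at 1 DAP and 3.26 to 4.89 at 4 DAP, with 0.685 to 1.59 CPM over both stages between. These 3 genes had no overlap. The remaining symbols were cap1 (GRMZM2G056014), with 18.2 to 59.9 CPM at 1 DAP, 8.85 to 15.8 at 2 DAP, 7.77 to 11.3 at 3 DAP and 36.1 to 78.2 at 4 DAP, and the plastid co-chaperonin gene CHL-CPN10 (GRMZM2G103236), with 5.69 to 16.2, 3.75 to 4.00, 3.58 to 4.45 and 5.50 to 10.9 CPM at those stages. Of the 100 members 71 matched an entry of the reference table and 16 had a symbol, so most of the list cannot be described by function here.

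A block of 7 gene models, which holds 6 of the 10 highest scores, moved together across all 18 libraries: AC203847.3_FG009, GRMZM2G080263, GRMZM2G355761, GRMZM2G355742, AC203847.3_FG004, GRMZM2G323925 and GRMZM2G496821. Pearson's r between any pair of them on log2(CPM + 1) was at least 0.976. The ratio of GRMZM2G080263 to AC203847.3_FG009 stayed between 0.994 and 1.02 in every library. Ratios of the other models to AC203847.3_FG009 varied more, from 0.313 to 1.01 for GRMZM2G496821 and from 1.03 to 2.29 for GRMZM2G355761. How the counting treated reads shared between models is not given in the sources used here. The 7 are therefore reported as uncertain single genes and may count the same reads more than once. Their summed CPM in replicates 1, 2 and 3 was 1701, 7243 and 2825 CPM at 1 DAP, 307, 745 and 239 CPM at 2 DAP, 254, 318 and 367 CPM at 3 DAP, and 558, 4434 and 2799 CPM at 4 DAP. Replicate 1 of 4 DAP was thus below replicate 2 of 2 DAP, and the replicates of 1 and 4 DAP differed more than 4-fold among themselves.

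In the embryo the block summed to 6047, 15860.1 and 15084 CPM, against 3317, 8084 and 19373 CPM in the central cell, up to 1.74% of an embryo library and 1.80% of a central cell library. None of the 7 was called between embryo and central cell by limma (adjusted p = 0.569 to 0.643), and the groups overlapped. Only GRMZM2G355761 matched a reference entry, without a symbol, and 1 entry lies between it and cap1 in the later assembly. The r of that neighbour pair was 0.572, so they did not move together as the block did. Other members that moved as close pairs were GRMZM2G481086 with GRMZM2G457396 (r = 0.999), and AC152495.1_FG003 with GRMZM2G003625 (r = 0.996). All of these r are over the same 18 libraries and share their depth and scaling.

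**Figure D3:**
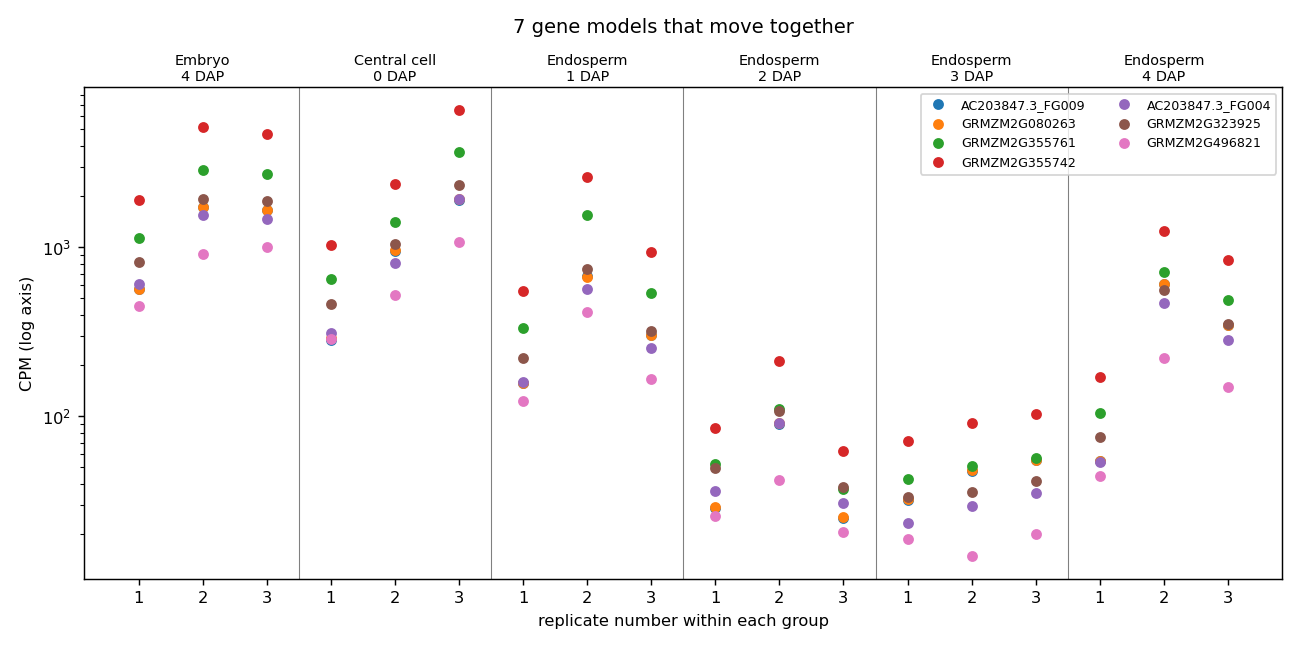
CPM on a log axis of the 7 gene models of the block in each library, by group and replicate number. The models rise and fall together, but only AC203847.3_FG009 and GRMZM2G080263, which lie on each other, keep a nearly constant distance. In the block's sum replicate 1 is the lowest of the embryo, central cell, 1 DAP and 4 DAP libraries.

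Of the other highest-scoring members, GRMZM2G122937 had 15.2, 26.6 and 32.9 CPM at 1 DAP, 1.74, 2.16 and 0.965 CPM at 2 DAP, 1.78, 0.948 and 2.40 CPM at 3 DAP and 13.9, 13.7 and 16.9 CPM at 4 DAP. Its 4 DAP libraries lay close together, and its highest low-stage library had 2.40 CPM. GRMZM2G160506 was far less even, with 4.91, 26.0 and 28.0 CPM at 1 DAP, 0.428 to 2.07 at 2 DAP, 1.50 to 3.15 at 3 DAP and 17.1, 24.0 and 7.61 CPM at 4 DAP. GRMZM2G127949 had 27.3, 30.7 and 44.1 CPM at 1 DAP but only 6.99, 7.85 and 3.04 CPM at 4 DAP. Between them it had 0.113 to 0.688 CPM at 2 DAP and 0.380, 0 and 0.392 CPM at 3 DAP, where no read in replicate 2 allows up to 0.0790 CPM. These 3 genes have no symbol in the reference table.

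GRMZM2G099353 held one of the highest CPM levels of the list, on a scale not corrected for length, with 417, 1206 and 1009 CPM at 1 DAP, 42.2, 191 and 100.1 CPM at 2 DAP, 54.9, 172 and 129.7 CPM at 3 DAP and 82.2, 538 and 415 CPM at 4 DAP. Replicate 1 of 4 DAP lay within the range of the low stages. GRMZM2G457396, of the close pair above, went further: replicate 1 of 4 DAP, at 50.6 CPM, was below every 2 and 3 DAP library, of which the lowest had 78.8 CPM. Without that replicate number its 1 and 4 DAP libraries, 469.6 to 669 CPM, were all above its 2 and 3 DAP libraries, 187 to 246 CPM.

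Over the whole list, 75 members had all 6 libraries of 1 and 4 DAP above all 6 of 2 and 3 DAP, a pattern found in 1.88% of the 13467 genes meeting the minimum. Within every replicate number, 94 members had both high stages above both low ones, against 4.34% of those genes. The 6 exceptions were GRMZM2G101584, GRMZM2G164308, GRMZM2G481086 and GRMZM2G457396 in replicate 1 and GRMZM2G025812 and GRMZM2G171561 in replicate 3. Because the same values chose the members, nothing is read from these counts. Single replicates stood low in many members at once. Replicate 1 was the lowest of 3 in 54 members at 1 DAP, against 46.0% of all genes meeting the minimum, in 59 in the embryo, against 47.9%, and in 59 in the central cell, against 33.1%. At 3 DAP replicate 2 was the lowest in 48 members, against 27.9%. At 4 DAP replicate 3 was the lowest in 50, against 28.7%, and replicate 1 in 40, against 43.7%. The list changed most with a minimum of 10 CPM, under which 39 members stayed among the 100 highest scores, and with the lowest high-stage library set over the highest low-stage library, under which 55 stayed.

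The same rule was then applied to 2 replicates at a time and the dip read in the replicate not used. Of the 100 genes chosen without replicate 1, 84 had both high stages above both low stages in replicate 1, against 13.0% of all genes meeting the minimum in the replicates used. Without replicate 2 the count was 94, against 16.4%, and without replicate 3 it was 85, against 12.3%. The median score in the replicate left out was 1.59, 2.27 and 1.76 for the genes chosen without replicates 1, 2 and 3, and 0.612, 0.685 and 0.685 for all genes meeting the minimum. Of the genes so chosen, 75, 79 and 73 belonged to the 100 members. These counts describe lists chosen again by the same rule from the same stages. They are given with no test and are not separate evidence for the 100 members.

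**Figure D4:**
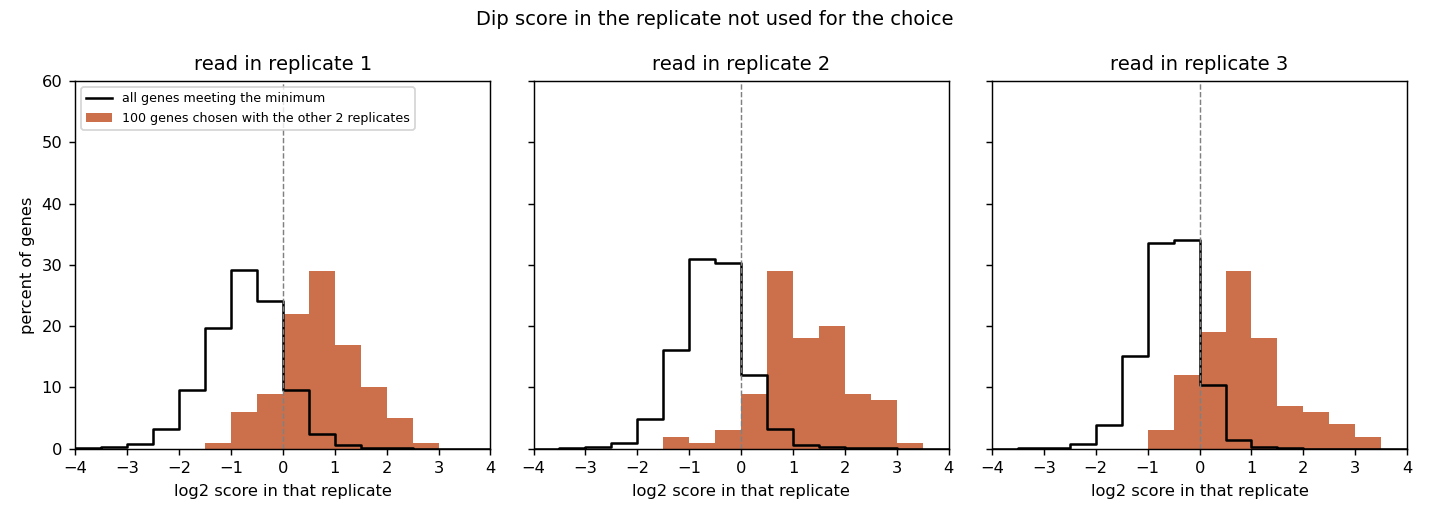
Log2 of the dip score in the replicate left out of the choice, as the percentage of genes in bins, for the 100 genes chosen with the other replicates (bars) and for all genes meeting the minimum (line); the dashed line marks a score of 1. Most bars lie right of the dashed line, with medians of 1.59, 2.27 and 1.76 on the unlogged scale, while the line peaks left of it. The lists were chosen again by the same rule from the same stages and are not separate evidence for the 100 members.

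**Figure D5:**
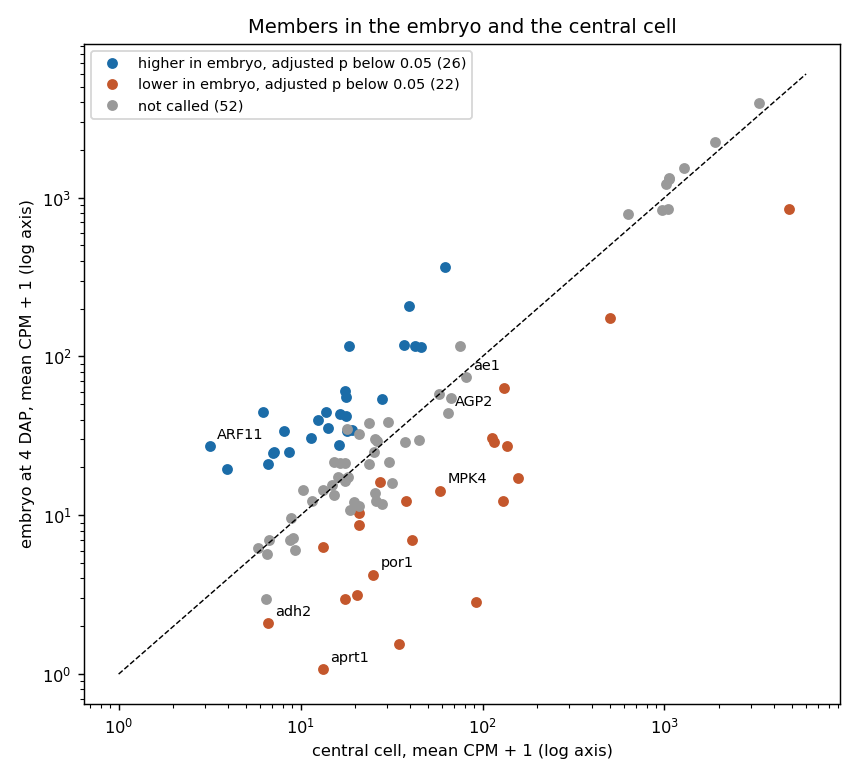
Mean CPM + 1 of each member in the embryo against the central cell, both axes logarithmic, coloured by the limma call; the dashed line marks equal means. The 26 members called higher in the embryo and the 22 called lower spread on either side of the line, with ARF11 far above it and aprt1 far below it.

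The score used neither the embryo nor the central cell. All 3 embryo libraries lay above all 2 and 3 DAP endosperm libraries in 79 members, against 10.1% of the genes meeting the minimum. The 3 central cell libraries did so in 82 members, against 16.0%, and both groups did in 67 members, against 4.28%. These counts set unused groups against stages that the score chose to be low, so they are given without a test. The median over members was 24.0 CPM in the embryo, against 19.9 CPM in the central cell. The highest of the 6 group means was in the embryo for 41 members, against 15.9% of the genes meeting the minimum. It was in the central cell for 37, against 24.4%, at 1 DAP for 9, against 10.0%, and at 4 DAP for 13, against 11.8%. The rule keeps 2 and 3 DAP, highest in 26.5% and 11.3% of those genes, from being highest in a member. That raises the counts of the other groups, so nothing is read from them. The lowest group mean, which the rule also steers, was at 2 DAP for 56, against 12.8%, and at 3 DAP for 41, against 7.10%. It was in the embryo for 2, aprt1 and GRMZM2G307992, against 24.4%. In the central cell it was for 1, GRMZM2G003762, against 31.7%.

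Only the embryo against the central cell was tested, since the score used neither. By limma on log2(CPM + 1), 26 members were called higher in the embryo and 22 lower at an adjusted p below 0.05. Among all 31783 genes tested, 38.8% were called, 18.8% higher and 20.0% lower, beside 48 of the 100 members. The members' median log2 difference was -0.03, against 0.01 over all 31783 genes. That background admits genes with 1 CPM in 3 libraries, whereas every member met the 3 CPM minimum. With a filter of 5 CPM in 3 libraries, 46.4% of 18736 genes were called, 23.3% higher and 23.1% lower. The members' calls stayed at 26 and 22, close to that share, so no excess of calls among members is read. The main fit had no term for the replicate number. With that number as a block 27 members were higher and 25 lower, against 24.2% and 25.3% of all genes tested. Without replicate 1 of the central cell 17 members were called higher, against 16.9% of all genes tested. Without replicate 2 of all groups 13 were called higher and 12 lower, against 9.04% and 10.3% of all genes tested. Of the 48 calls, 24 held under every alternative tried, 12 in each direction. The members higher in the embryo included 23 of the 41 whose highest mean was there. Those lower included 18 of the 37 with their highest mean in the central cell. The place of the highest mean fixes the direction of these calls, so nothing is read from these counts.

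These differences are between tissues and are not changes over time. ARF11 had the largest difference toward the embryo among the members. ARF11 had 34.0, 22.6 and 21.9 CPM in the embryo, against 2.30, 2.21 and 2.02 CPM in the central cell. Its log2 difference was 3.07 ± 0.24 (SE, limma adjusted p = 3.55e-08). NF-YA7 was also higher in the embryo, at 25.1, 13.5 and 21.7 CPM against 7.65, 4.21 and 4.90 CPM in the central cell. Its log2 difference was 1.67 ± 0.31 (limma adjusted p = 0.000366). In neither gene did the groups overlap, and both calls held under every alternative. The 5 markers of the embryo-surrounding region of the endosperm, at 473 to 890.0 CPM in the embryo libraries, summed to 0.291 to 0.854 CPM in the central cell, with none at 0, and their part in the members' differences was not tested. In the auxin response factor list 12 of 17 tested genes were higher in the embryo and ARF10 alone was lower. Of all genes tested 18.8% were higher and 20.0% lower, or 23.3% and 23.1% with a filter of 5 CPM in 3 libraries.

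The other 5 members with the largest differences toward the embryo had no symbol. GRMZM2G156238 averaged 43.6 ± 8.22 CPM in the embryo and 5.25 ± 2.23 CPM in the central cell (SD, n = 3 each), and its highest library of the 1 to 4 DAP endosperm had 6.69 CPM. GRMZM5G874163 averaged 115 ± 47.0 CPM in the embryo and 17.4 ± 2.08 CPM in the central cell, and GRMZM2G020940 averaged 18.7 ± 6.80 CPM in the embryo and 2.92 ± 3.08 CPM in the central cell. For GRMZM2G149869, with 112, 449.7 and 529 CPM in the embryo against 24.3, 69.8 and 89.9 CPM in the central cell, and GRMZM2G126900, with 102, 237 and 277 CPM in the embryo against 31.3, 24.5 and 58.8 CPM in the central cell, the limma adjusted p was 0.0194 and 0.00757. The call of GRMZM2G149869 was lost without replicate 1 of the central cell, replicate 2 or 3 of the embryo, or replicate 2 or 3 of all groups (adjusted p of 9.82e-06 to 0.137 over the alternatives), and that of GRMZM2G126900 without replicate 2 of all groups (0.000541 to 0.158).

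Weaker calls of a higher level in the embryo were those of cap1 and AUX6. AUX6 had 26.4, 37.5 and 36.0 CPM in the embryo, against 6.25, 15.2 and 33.3 CPM in the central cell (log2 difference 1.09 ± 0.40, limma adjusted p = 0.0406). The gene cap1 had 40.7, 65.0 and 53.4 CPM in the embryo, against 5.46, 8.10 and 67.0 CPM in the central cell (1.74 ± 0.62, limma adjusted p = 0.0345). In both genes replicate 3 of the central cell reached the embryo's range. Both calls were lost without any 1 of replicates 1 and 2 of the central cell and 2 and 3 of the embryo, and also without replicate 1 or 2 of all groups, with the 2 groups fitted alone, with edgeR and with DESeq2. The alternatives gave AUX6 adjusted p-values of 0.00166 to 0.29 and cap1 8.82e-05 to 0.371.

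The largest difference toward the central cell was that of GRMZM2G307992. It had 1.15, 0.842 and 3.53 CPM in the embryo against 28.4, 92.4 and 154 CPM in the central cell. The log2 difference was -4.84 ± 0.68 (limma adjusted p = 2.6e-05). GRMZM2G152447 had 0.178, 0.495 and 0.992 CPM in the embryo, against 30.3, 29.3 and 42.2 CPM in the central cell (-4.50 ± 0.34, limma adjusted p = 2.24e-08). Neither gene reached 4 CPM in an embryo library. The gene aprt1 had 0, 11 and 4 reads in the embryo, or 0, 0.136 and 0.0793 CPM, against 492, 1369 and 535 reads in the central cell, or 6.81, 16.9 and 13.0 CPM. Its log2 difference was -3.55 ± 0.32 with the pseudocount of 1, which understates so low a level (limma adjusted p = 1.74e-07). The 0 reads in the embryo's shallow replicate 1 allow up to 0.266 CPM.

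MPK4 was the only one of the 4 MAP kinase genes called lower, with 13.8, 13.3 and 12.8 CPM in the embryo against 43.1, 48.6 and 81.5 CPM in the central cell (log2 difference -1.98 ± 0.43, limma adjusted p = 0.0014). MPK6-1 and MPK5, of the same list, were higher in the embryo, beside 18.8% higher and 20.0% lower among all genes tested. Under a filter of 5 CPM in 3 libraries these shares were 23.3% and 23.1%. The porin gene por1 had 3.46, 3.74 and 2.50 CPM in the embryo, against 20.7, 27.3 and 24.3 CPM in the central cell (-2.57 ± 0.24, limma adjusted p = 2.84e-07). GRMZM2G348512, GRMZM2G052869 and GRMZM2G052844, without symbols, averaged 11.3, 16.1 and 2.16 CPM in the embryo and 129, 156 and 19.3 CPM in the central cell. None of the groups of these 5 genes overlapped. GRMZM2G099353 averaged 843 ± 459.5 CPM in the embryo and 4804 ± 2531 CPM in the central cell (limma adjusted p = 0.0101), a call lost without replicate 1 of the embryo and without replicate 2 or 3 of all groups, with adjusted p of 4.54e-07 to 0.0881 over the alternatives.

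For adh2 the embryo had 0.622, 1.89 and 0.774 CPM, against 2.02, 4.23 and 10.6 CPM in the central cell, lower by limma (log2 difference -1.49 ± 0.46, adjusted p = 0.0163). The call was lost without replicate 3 of the central cell, replicate 1 or 3 of the embryo, or replicate 2 or 3 of all groups, and the alternatives gave adjusted p-values of 0.000604 to 0.14. GRMZM2G122937 had 3.91, 1.55 and 0.436 CPM in the embryo, against 4.32, 14.8 and 30.8 CPM in the central cell (-2.41 ± 0.52, limma adjusted p = 0.00131), a call lost without replicate 2 or replicate 3 of all groups (1.74e-05 to 0.075 over the alternatives). GRMZM2G127949 had 41.3, 28.5 and 54.2 CPM in the embryo, against 5.47, 12.01 and 32.6 CPM in the central cell (1.54 ± 0.45, limma adjusted p = 0.0122), and was lost without replicate 1 of the central cell, replicate 3 of the embryo, or replicate 1 or 2 of all groups, and with edgeR and DESeq2 (0.000429 to 0.16 over the alternatives).

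None of the 3 starch members was called between embryo and central cell as tested. For AGP2 the log2 difference was -0.65 ± 0.32 (limma adjusted p = 0.127), and it was called lower without replicate 2 of the embryo (adjusted p = 0.0228, range over alternatives 0.0228 to 0.423). For ae1 it was -0.12 ± 0.22 (limma adjusted p = 0.722). That of pho1 was -0.99 ± 0.44 (limma adjusted p = 0.0816), and pho1 was called lower with the replicate number as a block (adjusted p = 0.015), with a pseudocount of 5, with the 2 groups fitted alone and without replicate 1 of all groups (range over alternatives 0.015 to 0.248). TIFY12 likewise had 6.22, 13.2 and 12.7 CPM in the embryo, against 9.43, 20.6 and 50.7 CPM in the central cell, and was not called as tested (limma adjusted p = 0.108) but was called lower with the block (adjusted p = 0.00751), with DESeq2, without replicate 1 of the central cell and without replicate 1 of all groups (range 0.00751 to 0.504). Of the 22 starch and sucrose genes, 5 were higher in the embryo (du1, sh1, sus2, GBSSIIa and Agp2), 4 were lower and 13 were not called. Of the TIFY genes 2 of 11 tested were lower and none higher. Both lists stand beside 18.8% higher and 20.0% lower among all genes tested. Under a filter of 5 CPM in 3 libraries these shares were 23.3% and 23.1%.

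Marker sums of maternal tissue, the embryo and parts of the endosperm are given here beside the dip. The 4 maternal genes (zag2, ZAG1, zmm7 and bde1) summed to 86.9 to 166 CPM at 0 DAP, 62.1 to 98.4 at 1 DAP, 29.2 to 32.7 at 2 DAP, 3.02 to 14.2 at 3 DAP and 0.904 to 6.37 at 4 DAP, and none was at 0 in any group. The 8 embryo models summed to 6.58 to 13.3 CPM at 1 DAP, 2.00 to 5.15 at 2 DAP, 2.66 to 4.78 at 3 DAP and 3.29 to 5.40 at 4 DAP, so their low continued at 4 DAP. The 5 aleurone genes summed to 46.0 to 56.2 CPM at 1 DAP, 33.1 to 50.1 at 2 DAP, 60.9 to 81.7 at 3 DAP and 135 to 173.8 at 4 DAP, and the photosynthesis genes PSBQ and cab-m1 to 7.70 to 11.1, 11.5 to 14.3, 12.1 to 15.5 and 6.24 to 9.90 CPM. EBE-1 and EBE-2, genes expressed in the embryo sac and early endosperm, ran opposite to the members, with a sum of 104 to 162 CPM at 1 DAP, 636 to 1319.7 at 2 DAP, 472 to 830.1 at 3 DAP and 115 to 275 at 4 DAP, and neither was at 0. Their part in the dip was not tested. The deposited totals per library also differed by stage, at 857516 to 979938 CPM at 1 DAP, 1156765 to 1241738 at 2 DAP, 1034389 to 1122251 at 3 DAP and 870772 to 946658 at 4 DAP. With each library instead scaled to its own total, 87 members and 4.74% of all genes meeting the minimum had all high-stage libraries above all low-stage ones. These values chose the members, so nothing is read from that count, and the part of the totals in the dip was not tested.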

How the data were processed

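RNA of laser-captured B73 tissue was amplified and sequenced in paired ends, per the labels' protocols. The deposited table gives each gene a normalized signal, in CPM, for every library. All values were whole multiples of 1 step (100% within 0.001 reads), so reads were recovered. The submitters' processing notes list edgeR, bedtools 2.17.0, TopHat2 2.0.9, Trimmomatic and the build B73 RefGen_v3, without roles. For strand use and shared reads, the method is not given in the sources used here.

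The members and the gene lists were chosen with earlier results of these data known. Embryo and central cell were compared with limma 3.58.1 (R 4.3.3) on log2(CPM + 1), with trended variance and 1 mean per group in all 18 libraries. The 31783 genes with at least 1 CPM in 3 libraries were tested two-sided, with Benjamini-Hochberg adjustment and calls below 0.05. The script was tested on simulated data. On the recovered reads edgeR 4.0.16 called 5518 genes higher and 5970 lower, and DESeq2 1.42.0 called 6367 and 6416, as alternatives, with DESeq2's missing adjusted p-values left missing. Other alternatives changed the pseudocount, filter, scaling, libraries and replicate block.

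Named genes are the 10 highest scores, 15 with symbols and 3 each side of the threshold. They also include the 6 called members with the largest differences in each direction, the 5 highest CPM and groups of 3 or more close models. CHL-CPN10, other list genes and members with an exception were added after their values were seen. Symbols came from a table of a later assembly (Zm-B73-REFERENCE-NAM-5.0), matched by identifier for 14444 of 38300 genes; positions are not used here because the builds differ. That table holds no product descriptions, so planned lists by product were reduced to those with symbols (starch, auxin response factors, TIFY, MAP kinases and markers).

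The labels number the replicates 1 to 3 in each group. Deviations from the group means of embryo and central cell libraries with the same number correlated at 0.438, 0.149 and 0.225. Over all groups the lowest such value was 0.0562. By mean correlation with libraries of the other groups, 16 of the 18 libraries were closest to their own number. The numbers were therefore taken to pair the libraries in the replicate-block alternative. The main limma fit did not use this pairing. With the block 49.5% of all genes tested were called, against 38.8% in the main fit.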

Additional observations from a re-analysis of the deposited data

How the results depend on the processing

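Of the 100 members, 69 to 96 stayed in the list when the CPM added to the score, the minimum of 1 CPM, the median or the scaling was changed, but 39 stayed with a minimum of 10 CPM and 55 with the lowest library set over the highest; leaving out libraries kept 73 to 94. The count of members whose high and low stages did not overlap, 75 (1.88% of all genes meeting the minimum), ran from 74 with quantile normalization (2.02%) to 96 without replicate 1 (5.21%); the same values chose the members. For the embryo against the central cell, members called higher numbered 13 to 25 and lower 12 to 24 when libraries were left out, the fewest without replicate 2 of all groups, and 17 higher without replicate 1 of the central cell. Of all genes tested, 9.04% to 21.5% were then called higher and 10.3% to 20.8% lower, against 18.8% and 20.0% in all libraries. With the replicate number as a block, 27 members were higher and 25 lower, against 24.2% and 25.3% of all genes: no member's call was lost, and pho1, TIFY12, GRMZM2G086994 and GRMZM2G073465 gained one. With edgeR 20 were higher and 20 lower, against 17.4% and 18.8%, and with DESeq2 22 and 23, against 20.1% and 20.2%. With groups of models correlated at r of at least 0.97 counted once, an alternative chosen after seeing the data, 92 genes gave 26 and 22. No normalization factor moved the median over all genes to 0.14 on the log2 scale and gave 27 and 20, against 23.6% and 16.1%.

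Uncalled log2 differences between embryo and central cell changed sign in 15 cases, and the cause was not tested. With no normalization factor that of ae1 was 0.084 and that of COR413-TM1 0.083. When libraries were left out, ae1 ranged from -0.25 to 0.11, COR413-TM1 from -0.60 to 0.47 and GRMZM2G457396 from -0.83 to 0.22. In the block the lowest value was always without replicate 1 of the central cell and the highest without its replicate 3: -0.16 and 1.15 for AC203847.3_FG004, -0.20 and 1.17 for AC203847.3_FG009, -0.21 and 1.16 for GRMZM2G080263, -0.13 and 1.04 for GRMZM2G323925, -0.14 and 1.20 for GRMZM2G355742, -0.13 and 1.11 for GRMZM2G355761, and -0.013 and 0.94 for GRMZM2G496821. The replicates 1 of 1 DAP and of the embryo, the shallowest libraries, limit the precision of low values there.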

Other observations

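Further members whose highest group mean was at 1 or 4 DAP are described here by examples chosen after their values were seen. GRMZM2G043887 had 15.2, 3.89 and 6.93 CPM at 1 DAP, 2.46, 0.0856 and 0.386 CPM at 2 DAP, 0.347, 0.737 and 0.2504 CPM at 3 DAP, and 47.2, 50.7 and 37.8 CPM at 4 DAP. Its 4 DAP libraries were the highest of the 4 stages, and 3.89 CPM at 1 DAP still lay above the 2.46 CPM of its highest low-stage library. GRMZM2G099754 had 6.58, 6.99 and 7.95 CPM at 1 DAP, 1.39, 0.814 and 0.919 CPM at 2 DAP, 3.73, 1.00 and 2.69 CPM at 3 DAP, and 68.8, 43.1 and 26.5 CPM at 4 DAP. GRMZM2G003762 was the 1 member with its lowest mean in the central cell, at 3.95, 8.88 and 8.58 CPM, and it had 49.1, 135 and 86.5 CPM at 4 DAP. Its 2 and 3 DAP libraries held 4.90 to 14.0 CPM, below the 20.3 to 36.9 CPM of 1 DAP.

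Highest at 1 DAP was GRMZM2G104076, with 73.6, 117 and 162 CPM at 1 DAP, 26.3 to 35.6 CPM at 2 DAP, 23.9 to 37.5 CPM at 3 DAP and 57.1 to 72.7 CPM at 4 DAP. It was also higher in the embryo, at 116 ± 20.7 CPM, than in the central cell, at 41.6 ± 11.2 CPM (SD, n = 3 each; limma adjusted p = 0.000413), with no overlap of the groups. GRMZM2G042664 had 12.8, 25.5 and 21.8 CPM at 1 DAP, 0.736, 0 and 0.113 CPM at 2 DAP, 0.653 to 2.77 CPM at 3 DAP and 4.60 to 12.2 CPM at 4 DAP. A count of 0 in replicate 2 of 2 DAP allows up to 0.0428 CPM (3 reads).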
